A study of Bos taurus with 11 samples.

Results

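The miRNAs *miR-7* and *miR-375* were followed through small RNA libraries from the mammary gland of lactating cows. They were taken as the 2 rows of the deposited count table whose identifiers are bta-miR-7 and bta-miR-375, out of 796 rows, and no further row of the table carries either name with an arm or a letter. The samples were mammary biopsies of 5 Holstein and 6 Montbéliarde cows, dairy breeds kept on the same diet and sampled at mid-lactation, and each cow gave 1 library. Another Holstein cow had been excluded by the study because of mastitis. No treatment was compared, and the ages of the cows are not in the sample labels. The groups were formed by breed, and libraries are named by the tag in the sample titles (CNLX1 to CNLX9 in Holstein, CNLX13 to CNLX23 in Montbéliarde). If the tags follow an order of preparation, which is not stated, that order cannot be told apart from breed. Each library was a bulk biopsy, so that every cell type of the tissue contributed to it.

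MiRNAs pair with messenger RNAs, mainly through the bases near their 5′ end, and lower the amount of protein that is made from them. *MiR-375* is one of the best known miRNAs of secretory cells. It is abundant in the islets of the pancreas, where it restrains the release of insulin, and it is also found in the pituitary and in epithelia, among them the luminal epithelium of the breast. *MiR-7* is a very old miRNA, shared by vertebrates and insects, which is enriched in neuroendocrine cells, lowers signaling through the epidermal growth factor receptor, and is bound by the circular RNA *CDR1as*. The mammary alveolus is a secretory epithelium surrounded by myoepithelial, stromal, endothelial and immune cells.

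The bovine RefSeq annotation, which is of another assembly than the one used for the counts, lists 1 gene for *miR-375*, between the protein-coding genes *CRYBA2* and *CFAP65*. It lists 2 genes for *miR-7*. *MIR7-2* lies inside *HNRNPK*, a gene for an RNA-binding protein of nearly all cells, and *MIR7-3* lies between *FEM1A* and *DPP9*, outside any annotated gene. The table has a single row for mature *miR-7*, so that the reads of these genes cannot be told apart. Neither miRNA belonged to the 13 pairs of rows whose counts were equal or in a constant ratio in every library.

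The libraries held 7431936 to 16808976 reads counted on miRNAs in the Holstein group, compared with 6087865 to 11395785 in the Montbéliarde group. Levels are given as normalized read counts, which the authors obtained by dividing the raw counts by 1 size factor per library. Averaged over the 11 libraries, *miR-375* was at 20965 and ranked 42 of the 796 rows, and *miR-7* was at 147 and ranked 193. Of all reads counted in a library, *miR-375* took 0.220% ± 0.115 (SD, n = 11) and *miR-7* took 0.00150% ± 0.000524 (SD, n = 11). In every library *miR-375* had the higher read count, by a factor that ran from 53.0 in CNLX15 to 489 in CNLX19. These are numbers of reads, and how efficiently each miRNA entered the library was not measured. In the order of the levels, the rows next to *miR-375* were *miR-205*, a miRNA of basal epithelium, at 21451 ± 5092 (SD, n = 11) and *let-7c* at 20942 ± 7036 (SD, n = 11). *MiR-205* was above *miR-375* in 6 of the 11 libraries and *let-7c* in 4, so that their order was not distinct. The rows next to *miR-7* were *miR-10166-5p* at 151 ± 89.1 (SD, n = 11) and *miR-874* at 146 ± 104 (SD, n = 11), and neither was on 1 side of *miR-7* in every library.

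In Holstein, *miR-375* was found at normalized read counts of 17095 in CNLX1, 18909.8 in CNLX3, 16878 in CNLX5, 24518 in CNLX7 and 39865 in CNLX9. The Montbéliarde libraries were at 16215 in CNLX13, 4967 in CNLX15, 24045 in CNLX17, 34580.5 in CNLX19, 8970.4 in CNLX21 and 24575 in CNLX23. The breeds overlapped widely. The highest level was found in a Holstein cow and the next in a Montbéliarde cow, whereas 3 Montbéliarde libraries lay below all Holstein libraries. Holstein cows had a mean of 23453 ± 9679.5 (SD, n = 5), against 18892 ± 10995 (SD, n = 6) for Montbéliarde cows, a difference that did not exceed the spread between libraries (two-sided exact permutation test on log2 values, p = 0.372). The highest library was 8.03 times the lowest.

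The spread was much wider than the counting error. The raw counts of *miR-375* ran from 3975 to 37174, for which the counting error is 0.519 to 1.59%, while the coefficient of variation was 41.3% in Holstein and 58.2% in Montbéliarde. In CNLX15, the library with the lowest level, the share of *miR-375* was 0.0435% (95% interval 0.0422 to 0.0449%, Wilson method). In CNLX9, with the highest level, it was 0.412% (0.407 to 0.416%). Such intervals cover counting error only. Among the 214 miRNAs with a mean count of at least 100 per library, the SD within breeds on the log2 scale was 0.86 for *miR-375*, against a median of 0.35. Only 9 of these miRNAs had a larger one, so that *miR-375* was among the most variable of the abundant miRNAs.

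*MiR-7* was far scarcer and varied less. Its normalized read counts in Holstein were 201 in CNLX1, 174 in CNLX3, 219.6 in CNLX5, 201 in CNLX7 and 171 in CNLX9. In Montbéliarde they were 118 in CNLX13, 93.7 in CNLX15, 147 in CNLX17, 70.7 in CNLX19, 114 in CNLX21 and 104 in CNLX23. The groups did not overlap, and the lowest Holstein library was 1.16 times the highest Montbéliarde library. Such a separation was found for 11 of the 550 miRNAs tested, or 2.0%, and with Holstein on the higher side for 9 of them, or 1.64%. Holstein cows had a mean of 193 ± 20.6 (SD, n = 5), against 108 ± 25.7 (SD, n = 6) for Montbéliarde cows (two-sided exact permutation test on log2 values, p = 0.00433). These values rest on 71 to 364 raw reads per library, and the counting error of 5.24 to 11.9% was thus a sizeable part of the coefficient of variation of 10.7% in Holstein and 23.8% in Montbéliarde. The share of *miR-7* in CNLX17, the highest of the Montbéliarde libraries, was 0.00135% (95% interval 0.00111 to 0.00164%, Wilson method). That of CNLX3, the lowest of the Holstein libraries by share, was 0.00162% (0.00139 to 0.00188%), so that the intervals of these neighbouring cows overlapped. The SD of *miR-7* within breeds on the log2 scale was 0.28, below the median of 0.35.

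**Figure D1:**
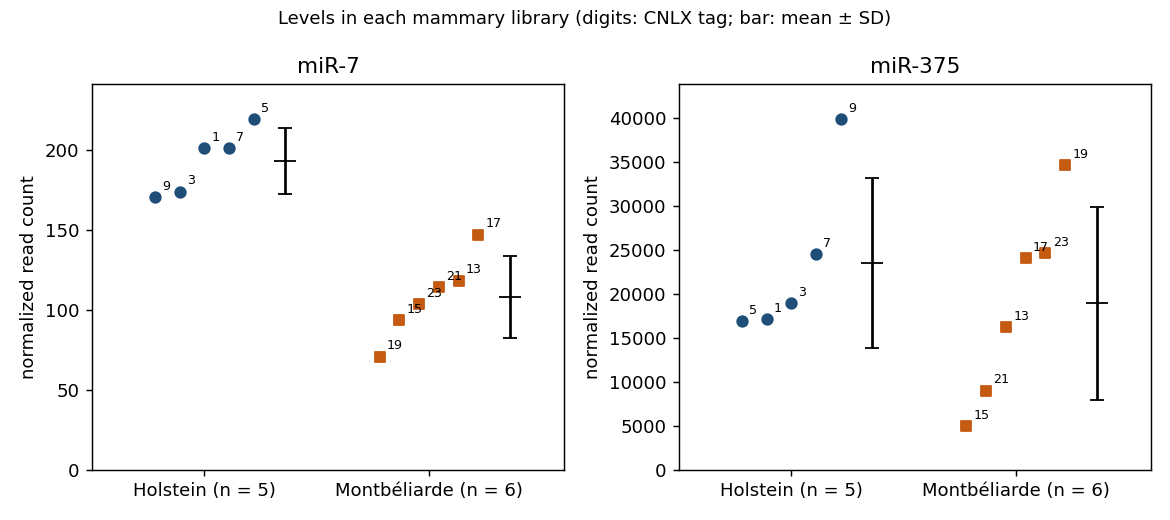
Normalized read counts of *miR-7* (left) and *miR-375* (right) in each library, with Holstein as blue circles and Montbéliarde as orange squares, digits giving the CNLX tag and bars the mean ± SD. All 5 Holstein libraries lie above all 6 Montbéliarde libraries for *miR-7*, from 171 upwards against 147 downwards, while the breeds overlap for *miR-375*, where CNLX9, at 39865, and CNLX15, at 4967, are the extremes.

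A difference between breeds was tested for all 550 miRNAs with at least 10 counts in sum, by fitting the raw counts in edgeR (quasi-likelihood test, Benjamini-Hochberg adjustment). Fold changes are Montbéliarde over Holstein, on the log2 scale (log2FC). Of these, 2 miRNAs passed an adjusted p of 0.05, or 0.364%, and 78, or 14.2%, reached an unadjusted p of 0.05, of which 36, or 6.55%, were higher in Holstein and 42, or 7.64%, in Montbéliarde. Neither *miR-7* nor *miR-375* passed the adjusted threshold. The log2FC of *miR-7* was -0.86 (standard error 0.20, 95% interval -1.28 to -0.44), which corresponds to a level 1.82 times higher in Holstein. Its p-value of 0.000551 was the third lowest of the table, and its adjusted p in edgeR after Benjamini-Hochberg adjustment was 0.0964. The log2FC of *miR-375* was -0.31 (standard error 0.41, 95% interval -1.19 to 0.57, edgeR adjusted p = 0.789). The interval for *miR-375* runs from a level 2.27 times higher in Holstein to a ratio of Holstein to Montbéliarde of 0.674. The estimate for *miR-7* lies inside it, so that a difference of that size is not excluded for *miR-375*. The median log2FC of all tested miRNAs was 0.027.

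The call of *miR-7* depended on the test, whereas its direction did not. The breeds did not overlap in *miR-7*, so that leaving out libraries could hardly turn its sign. The Wald test of DESeq2 called 21 of the 550 miRNAs, or 3.82%, and gave *miR-7* an adjusted p of 0.00133. Without the low-count filter of DESeq2, a setting added after seeing the data, 10 miRNAs or 1.82% were called and the adjusted p of *miR-7* was 0.00148. In edgeR, *miR-7* passed when CNLX17, the Montbéliarde library with its highest level, was left out (log2FC -0.95, edgeR adjusted p = 0.0435, Benjamini-Hochberg). Over the 23 alternatives, 2 of them added after seeing the data, its log2FC lay between -0.95 and -0.70. That of *miR-375* lay between -0.53 and 0.15, with the lowest adjusted p at 0.566 (edgeR without CNLX19). Without CNLX15 and CNLX21, the libraries with the lowest *miR-375*, its log2FC changed sign to 0.15 (standard error 0.28, edgeR adjusted p = 0.893), and that of *miR-7* was -0.76 (standard error 0.20, edgeR adjusted p = 0.157).

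**Figure D2:**
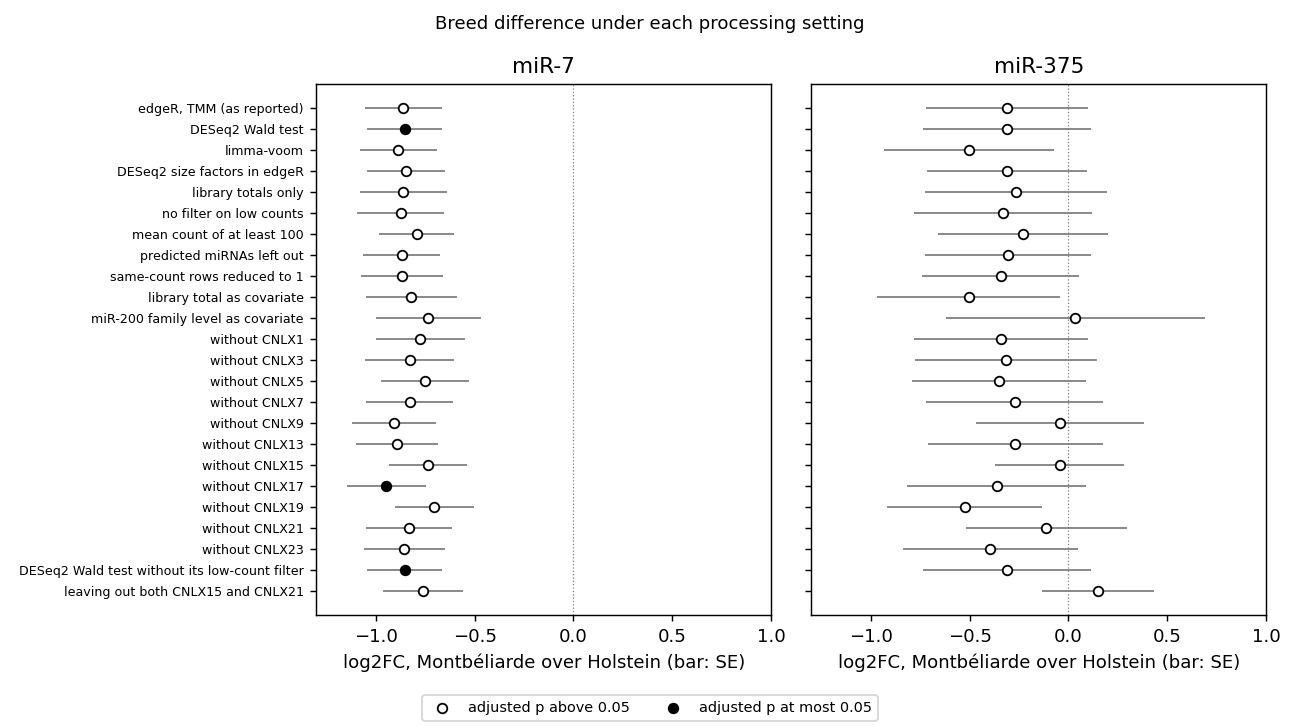
Log2 fold change of *miR-7* (left) and *miR-375* (right), Montbéliarde over Holstein, under each processing setting, with bars for the standard error and filled points for an adjusted p of at most 0.05. *MiR-7* stays between -0.95 and -0.70 and is called under 3 of the 24 settings shown, while *miR-375* stays between -0.53 and 0.15 and is never called.

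Markers of cell types were examined because the cell content of a biopsy can differ between cows. The epithelial list held 9 rows for 10 names: the *miR-200* family (*miR-200a*, *miR-200b*, *miR-200c*, *miR-141* and *miR-429*), which holds cells in the epithelial state, *miR-205*, and *miR-183*, *miR-182* and *miR-96* of 1 cluster. No row matched *miR-203*. All 9 were detected in every library. None passed the adjusted threshold between breeds, 2 had an unadjusted p within 0.05 with a higher level in Holstein (*miR-141* and *miR-200c*), where 6.55% of all tested miRNAs did, and the median log2FC of the list was -0.12, against 0.027 for all tested miRNAs. Summed over the list, the normalized read counts were 394212 at the lowest and 492308 at the highest in Holstein, against 205288 and 499601 in Montbéliarde. The stromal list (*miR-143*, *miR-145*, both arms of *miR-199a*, *miR-214*) had a sum of 1511914 to 2303536 in Holstein and of 1926891 to 3866930 in Montbéliarde. None of its 5 rows passed the adjusted threshold, 2 had an unadjusted p within 0.05 with a higher level in Montbéliarde, where 7.64% of all tested miRNAs did, and the median log2FC was 0.58. The stromal sum is almost wholly *miR-143*, with a mean of 2339520 against 7991 for *miR-199a-3p*, the next row, and *miR-145* had a log2FC of -0.27 (standard error 0.25). The epithelial sum was lowest in CNLX21 and CNLX15, and the stromal sum was highest in CNLX15 and CNLX21, the libraries with the lowest *miR-375*. In bulk tissue, fewer cells of a type and less RNA per cell cannot be told apart.

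Within the epithelial list the members moved unequally between breeds. *MiR-141*, the most abundant, was at 255751 to 359025 in Holstein and at 108911 to 353760 in Montbéliarde, and its log2FC was -0.74 (standard error 0.26, edgeR adjusted p = 0.217). That of *miR-200c* was -0.61 (standard error 0.27), that of *miR-182* was 0.045 (standard error 0.14) and that of *miR-205* was 0.38 (standard error 0.19). The sum of the list is set mainly by *miR-141*. CNLX13 had the highest epithelial sum of all libraries, 499601, and a *miR-7* level of 118. The part of the cell content in the levels of *miR-7* was not tested beyond the fit and the ratios that follow.

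The level of the *miR-200* family was then entered into the edgeR fit as a covariate. It was the log2 of a sum over the family and thus set mainly by *miR-141*. The mean normalized read count was 243915 for *miR-141* and 42590 for *miR-200c*, the next row. As *miR-141* itself had a log2FC of -0.74, the covariate was not independent of breed. The log2FC of *miR-7* became -0.73 with a standard error of 0.27, its unadjusted p rose to 0.0151 and its adjusted p to 0.593 in this edgeR fit with Benjamini-Hochberg adjustment. That of *miR-375* became 0.035 with a standard error of 0.65. In that fit no miRNA passed the adjusted threshold, and 37 had an unadjusted p within 0.05.

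Ratios taken within a library do not depend on the scaling between libraries, and 3 were compared between breeds with exact permutation tests, two-sided, over the 462 splits of 11 libraries into 5 and 6. As a share of the epithelial list, *miR-7* was at 0.0353 to 0.0557% in Holstein and at 0.0237 to 0.0556% in Montbéliarde, and the breeds overlapped. The Holstein libraries had a log2 ratio of -11.17 ± 0.24 (SD, n = 5) and the Montbéliarde libraries one of -11.44 ± 0.46 (SD, n = 6). The difference was -0.27 (exact permutation test, p = 0.266, adjusted over the 3 ratios 0.799). The lowest shares were those of CNLX13 and CNLX19, and the share of CNLX21 was close to that of CNLX5, the highest Holstein library. This outcome changed with the way the list was averaged. With the mean of the log2 counts over the list, in which *miR-141* weighs no more than the other members, the difference was -0.62 (exact permutation test, n = 11, p = 0.0152). With the *miR-200* family alone it was -0.12 (exact permutation test, n = 11, p = 0.647), and without CNLX15 and CNLX21 it was -0.50 (exact permutation test, n = 9, p = 0.0556). These libraries had the lowest epithelial sums and, at 0.0439 and 0.0556%, the highest shares of *miR-7* in Montbéliarde. Leaving them out thus lowers the Montbéliarde mean by construction.

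*MiR-375* amounted to 3.53 to 9.76% of the epithelial list in Holstein and to 2.32 to 13.4% in Montbéliarde. The difference of the log2 ratio was 0.10, no larger than the spread of the libraries (exact permutation test, n = 11, p = 0.840, adjusted over the 3 ratios 0.840). The ratio of *miR-7* to *miR-375* was 0.428 to 1.30% in the Holstein and 0.204 to 1.89% in the Montbéliarde libraries, with a difference of -0.37 on the log2 scale (exact permutation test, n = 11, p = 0.543, adjusted over the 3 ratios 0.815). The breed difference of *miR-7* was thus not shown to be larger than that of *miR-375*. Without CNLX15 and CNLX21 the difference of this ratio was -0.97 (exact permutation test, n = 9, p = 0.0714). These libraries had the lowest *miR-375* and, at 1.89 and 1.27%, the highest ratios of *miR-7* to *miR-375* in Montbéliarde. Leaving them out thus lowers the Montbéliarde mean by construction, and no conclusion is drawn from that p-value.

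**Figure D3:**
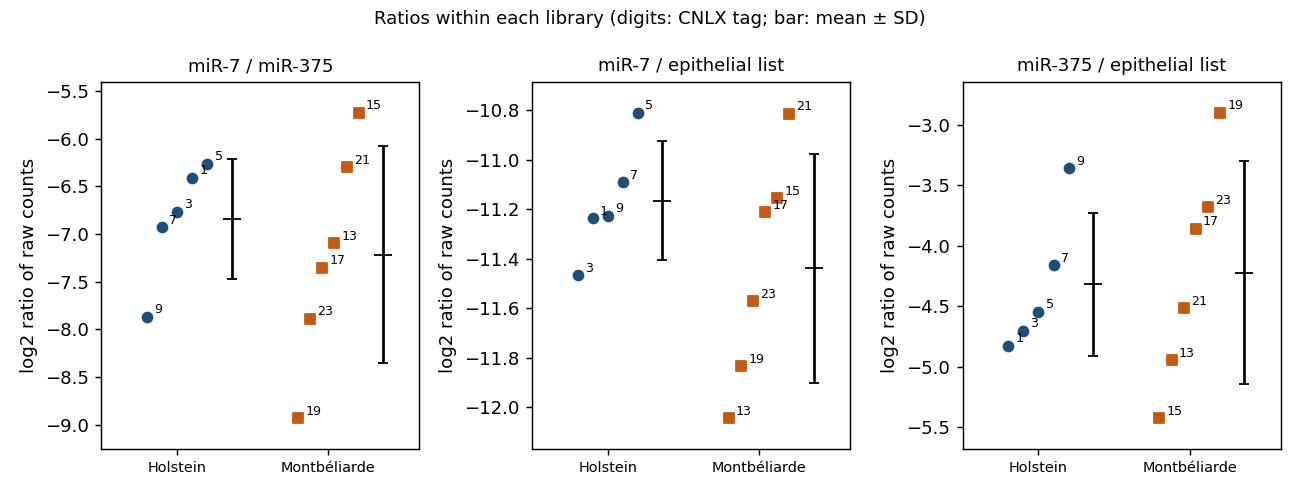
Log2 ratios of raw counts within each library for *miR-7* over *miR-375* (left), *miR-7* over the epithelial list (middle) and *miR-375* over the epithelial list (right), with Holstein as blue circles, Montbéliarde as orange squares, digits for the CNLX tag and bars for the mean ± SD. The breeds overlap in all 3 ratios, with exact permutation p-values (n = 11) of 0.543, 0.266 and 0.840 from left to right.

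Across cows the levels of *miR-7* and *miR-375* were not seen to run together. CNLX19 had the lowest *miR-7* of all libraries, 70.7, and the second highest *miR-375*, 34580.5. Of the Holstein libraries, CNLX9 had the highest *miR-375* and the lowest *miR-7*, whereas CNLX15 was low in both. Because the breeds were separate in *miR-7*, no correlation between *miR-7* and *miR-375* is given over all libraries. Within the 6 Montbéliarde libraries Pearson's r was -0.088 (exact permutation test, p = 0.856) and Spearman's rho -0.26 (exact permutation test, p = 0.658), on log2(TMM-scaled CPM + 1). Without CNLX15 and CNLX21, the libraries farthest from the median of *miR-375*, r was -0.80, a value over 4 libraries for which no test is given. Correlations were computed over at least 6 libraries, and therefore none within Holstein.

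**Figure D4:**
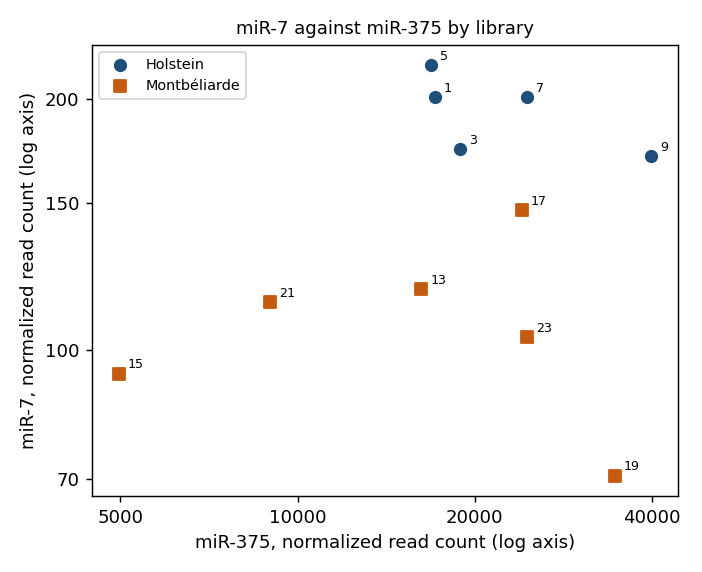
Normalized read count of *miR-7* against that of *miR-375* in each library, on log axes, with Holstein as blue circles, Montbéliarde as orange squares and digits for the CNLX tag. The breeds are separated along the *miR-7* axis and not along the *miR-375* axis, and CNLX19 combines the lowest *miR-7*, 70.7, with a *miR-375* of 34580.5.

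The miRNAs whose levels ran most like *miR-7* were looked for among 206 others with a mean count of at least 100 per library, by Pearson's r over the 11 libraries on log2(TMM-scaled CPM + 1). They were *miR-16a*, at 0.94, *miR-362-5p*, at 0.83, *miR-19a*, at 0.81, *miR-186*, at 0.80, and *miR-30e-5p*, at 0.77. Each had a negative log2FC, from -0.36 for *miR-30e-5p* to -0.89 for *miR-362-5p*, so that the breed difference itself contributes to these values. With each breed set to its own mean, r with *miR-7* was 0.73 for *miR-16a*, 0.37 for *miR-19a*, 0.32 for *miR-362-5p*, 0.28 for *miR-30e-5p* and 0.081 for *miR-186*. Of these 5, *miR-16a*, of the *miR-15* and *miR-16* family that restrains the cell cycle, thus kept the highest value within breeds, and it ranged from 6633 to 15238 normalized read counts. *MiR-16a* and *miR-186* were the 2 miRNAs that passed the adjusted threshold between breeds in edgeR, and their log2FC was -0.79 (standard error 0.15) and -0.77 (standard error 0.15). Of the epithelial list, *miR-141* came nearest to *miR-7*, with an r of 0.74 over the 11 libraries and 0.36 with each breed set to its own mean. For *miR-200a* and *miR-200b* r was 0.15 over the 11 libraries. Without CNLX15 and CNLX21, over 9 libraries, it turned to -0.55 for *miR-200a* and -0.60 for *miR-200b*, and *miR-183*, at 0.79, came before *miR-141*, at 0.74. Over the 11 libraries, however, *miR-183* had an r of 0.29 with *miR-7*, and of -0.058 with each breed set to its own mean. Within the 6 Montbéliarde libraries, no relation of *miR-7* with a summed marker list was detected. Its r lay between -0.29 for the neuroendocrine list and 0.62 for the erythroid list (exact permutation tests, 7 lists, adjusted p = 0.928 for each). With 6 libraries, such tests can miss a relation.

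By the same measure *miR-375* ran most like *miR-200b*, with an r of 0.89, *miR-103*, with 0.89, *miR-30f*, with 0.87, *miR-1839*, with 0.87, and *miR-429*, with 0.85. *MiR-200b* and *miR-429* are members of the *miR-200* family. *MiR-200a* followed in position 11 of 206, with an r of 0.83, and *miR-200c* in position 17, with 0.78. *MiR-141* was much less alike, with 0.36 in position 77, as was *miR-205*, with 0.071. With each breed set to its own mean, r was 0.89 for *miR-200b*, 0.85 for *miR-429*, 0.21 for *miR-141* and 0.29 for *miR-205*. They rested in part on CNLX15 and CNLX21. Without these libraries r fell to 0.56 for *miR-200b*, 0.54 for *miR-103*, 0.55 for *miR-1839*, 0.46 for *miR-30f* and 0.32 for *miR-429*, over 9 libraries, and it was -0.21 for *miR-200c* and -0.65 for *miR-141*. *MiR-200b* itself ranged from 6935 to 17560 normalized read counts, a narrower range than that of *miR-375*.

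The miRNAs that ran most opposite to *miR-375* were *miR-99a-5p* (r -0.92), *miR-342* (-0.92), *miR-10a* (-0.91), *miR-214* (-0.91) and *miR-24-3p* (-0.90), of which *miR-214* is on the stromal list. Without CNLX15 and CNLX21, r remained at -0.87 for *miR-10a* and was between -0.73 and -0.52 for the other 4. *MiR-10a*, which is encoded in a Hox gene cluster, ranged from 21759 to 67480 normalized read counts and had a log2FC of 0.027 (standard error 0.24) between breeds. With each breed set to its own mean, its r with *miR-375* was -0.97. *MiR-183* of the epithelial list also ran opposite to *miR-375*, with an r of -0.71 over the 11 libraries and of -0.91 with each breed set to its own mean. The likeness values were used to order miRNAs, they share libraries and scaling, and they carry no test.

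For the summed marker lists, 7 relations with *miR-375* were tested over the 11 libraries. The leukocyte sum is mostly *miR-142-5p*, with a mean of 21559 against 1181 for *miR-155*, the next row, so that its relation is mainly that of *miR-142-5p*. Pearson's r was -0.80 for the leukocyte list (permutation test, p = 0.00112, adjusted over 7 lists 0.00784) and Spearman's rho was -0.81 (permutation test, p = 0.00430, adjusted 0.0301). It was -0.84 for the neuroendocrine list (permutation test, p = 0.00368, adjusted 0.0129), with a rho of -0.42 (permutation test, p = 0.204). For the stromal list r was -0.63 (permutation test, p = 0.0370, adjusted 0.0864) with a rho of -0.45 (permutation test, p = 0.163), and for the epithelial list 0.50 (permutation test, p = 0.120, adjusted 0.210) with a rho of 0.11 (permutation test, p = 0.757). The other 3 lists had an r between -0.13 and 0.18. In each of these 4 relations, CNLX15 and CNLX21 were the libraries farthest from the median of the list. Without them r was -0.55 for the leukocyte list (exact permutation test, n = 9, p = 0.123) with a rho of -0.65 (exact permutation test, n = 9, p = 0.0666). In the rest of these 4 relations r was then -0.10 for the neuroendocrine list (exact permutation test, n = 9, p = 0.792), 0.13 for the stromal list (exact permutation test, n = 9, p = 0.736) and -0.58 for the epithelial list (exact permutation test, n = 9, p = 0.104). The neuroendocrine, stromal and epithelial relations thus rested on these cows, and the leukocyte relation kept its sign without passing the test. Within Montbéliarde, to which both belong, the leukocyte list had an r of -0.87 (exact permutation test, n = 6, p = 0.00833), the neuroendocrine list one of -0.91 (exact permutation test, n = 6, p = 0.0194), the stromal list one of -0.74 (exact permutation test, n = 6, p = 0.0875) and the epithelial list one of 0.51 (exact permutation test, n = 6, p = 0.299).

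**Figure D5:**
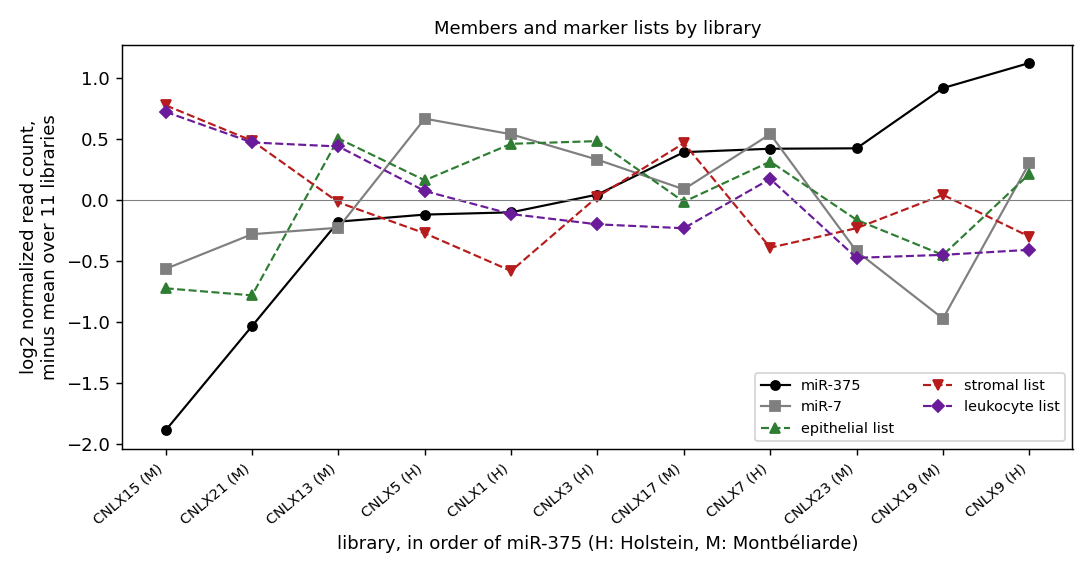
Log2 normalized read counts of *miR-375*, *miR-7* and the summed epithelial, stromal and leukocyte lists in each library, each as the difference from its mean over the 11 libraries, with libraries in the order of *miR-375*. CNLX15 and CNLX21, on the left, are lowest in *miR-375*, 4967 and 8970.4, and in the epithelial list, and highest in the stromal and leukocyte lists, and *miR-7* does not follow the order.

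*MiR-7* and *miR-375* are both known from neuroendocrine cells, and other miRNAs of such and of neural cells were scarce in these libraries. The list held 10 rows for 9 names. Its summed normalized read count was 399 to 615 in Holstein and 500 to 1621 in Montbéliarde, below *miR-375* alone in every library. Most of it was *miR-218*, with a mean of 385, and *miR-132*, with a mean of 168, which are not restricted to neural tissue. *MiR-184* had a mean of 39.4 and *miR-9* one of 35.2, and the remaining 6 rows had means of at most 4.55 (*miR-124a*, *miR-153*, *miR-212*, *miR-124b*, *miR-129* and *miR-129-3p*). None of the 10 passed the adjusted threshold between breeds, and 2, *miR-9* and *miR-218*, had an unadjusted p within 0.05 with a higher level in Montbéliarde, against 7.64% of all tested miRNAs. The median log2FC of the list was 0.56, against 0.027 for all tested miRNAs and negative values for *miR-7* and *miR-375*. The highest sum was found in CNLX15, the library with the lowest *miR-375*.

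Among the markers of other cells, the leukocyte list (*miR-142*, *miR-150*, *miR-155*, *miR-223*) had a sum of 18031 to 26952 in Holstein and of 17229 to 39422 in Montbéliarde, and CNLX15, CNLX21 and CNLX13 were its 3 highest libraries. The erythroid list (*miR-451*, *miR-144*, *miR-486*) had its Holstein values between 23603 and 39552 and its Montbéliarde values between 23429 and 57421. The arms of *miR-126*, taken as endothelial, summed to 251466 to 330168 in Holstein and to 239684 to 297167 in Montbéliarde. The muscle list (5 rows, with *miR-133a* as the most abundant) was at 618 to 1849 in Holstein and at 519 to 1622 in Montbéliarde. None of the tested rows of these 4 lists passed the adjusted threshold or had an unadjusted p within 0.05 between breeds. Their part in the levels of *miR-7* and *miR-375* was not tested beyond the relations given here.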

How the data were processed

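According to the methods of the study, the authors trimmed adaptors, removed reads with ambiguous bases, kept short reads and assigned them to miRNAs with miRDeep2 and ncPRO-seq on a bovine assembly older than the annotation used here. The authors deposited the raw counts of each mature miRNA by library. A second deposited signal, the normalized read counts, was made with DESeq2 1.18.1. These equal the raw counts divided by size factors, which were recomputed with DESeq2 1.42.0 without a detectable difference. How reads that fit more than 1 miRNA were counted is not given in the sources used here. The deposited means and the columns of the authors' own comparison (fold change, p-values) were not used.

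Raw counts were tested with edgeR 4.0.16 in R 4.3.3 (TMM, robust quasi-likelihood fit, breed as the only term) over miRNAs with at least 10 counts in sum, adjusted over all 550. DESeq2 and limma 3.58.1 were alternatives. Single values were compared with exact permutation tests or, for relations over 11 libraries, with 100000 permutations. The p-values set a difference or relation against the spread between cows with 1 library each, so that spread within a cow is not covered. The fits were tested on simulated counts with known changes in 200 of 550 miRNAs. At a log2 change of 0.75, edgeR recovered 25.3% of the changed miRNAs, DESeq2 35.9% and limma 25.2%. A change of that size was thus missed more often than called in this simulation. Of the calls, 3.09% were false in edgeR, 6.49% in DESeq2 and 4.83% in limma. With a log2 change of 2, the recovered parts were 84.8, 81.2 and 83.8% in the same order. Pairs in a constant ratio were those whose ratio varied by a factor of at most 1.02 with at least 20 counts. The members, marker lists and naming rules (the members, list rows, nearest levels, and the 5 most alike miRNAs) were chosen with earlier results of these data known. The relations of *miR-375* and *miR-7* with the summed marker lists, the 5 most opposite miRNAs, and the remarks on single rows of the lists were added after seeing the values. Names of neighbouring genes came from the RefSeq annotation of ARS-UCD2.0, without coordinates. Sequences were not analysed here. Plots were drawn with matplotlib 3.10.9.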

Additional observations from a re-analysis of the deposited data

Results flagged for a closer look

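Of the values per library of *miR-7*, *miR-375*, their ratios and the marker lists, examined by breed in 24 groups, 2 had 1 library far from the others, and about 1 in 20 such groups is so marked by chance. The neuroendocrine list reached 1621 in the Montbéliarde library CNLX15, where the gap to the next library was 0.675 of the whole range of the breed. The muscle list reached 1849 in the Holstein library CNLX3, with a gap of 0.785 of the range. No library stood apart by this measure in *miR-7*, in *miR-375* or in their ratios.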

How the results depend on the processing

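The direction of *miR-7* held in all 23 alternatives and that of *miR-375* in 21 of 23. For *miR-7*, whose levels did not overlap between breeds, the fits with libraries left out could hardly have given another sign. *MiR-7* had a log2FC of -0.85 and passed with DESeq2, with and without its low-count filter, and ranged from -0.95 to -0.70 with each library left out. *MiR-375* ranged from -0.53 to -0.04 with each library left out, and changed sign to 0.035 with the *miR-200* covariate and to 0.15 without CNLX15 and CNLX21. The number of miRNAs called, 2, became 21 with DESeq2, 10 with DESeq2 without its filter, 0 with DESeq2 size factors in edgeR or the *miR-200* covariate, 1 with library totals only, and 0 to 6 with each library left out. It was 6 without CNLX23, 5 without CNLX17, 4 without CNLX13, 1 without CNLX9 and 0 without CNLX1, CNLX3, CNLX5, CNLX7, CNLX15, CNLX19 or CNLX21. The cause was not tested. Where edgeR called 0 miRNAs, those with an unadjusted p within 0.05 numbered 82 with DESeq2 size factors, 37 with the covariate and 62 to 80 with a library left out.

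The ratio of *miR-7* to *miR-375* kept its sign and its side of the threshold in 14 of 14 alternatives, with -0.67 to -0.03 when a library was left out. The ratio of *miR-7* to the epithelial list passed only with the mean of log2 counts (-0.62), and was -0.40 to -0.15 with each library left out. The ratio of *miR-375* to that list changed sign to -0.25 with the mean of log2 counts, was -0.17 to 0.34 with each library left out and 0.47 without CNLX15 and CNLX21, and passed the threshold in none of its 16 alternatives. In the relations of *miR-375* with marker lists, r reversed to -0.58 for the epithelial and to 0.13 for the stromal list without CNLX15 and CNLX21. Without these libraries it also changed sign for the erythroid list, from 0.18 to -0.50. The same held for the endothelial list, from 0.067 to -0.45, and for the muscle list, from -0.13 to 0.070. With DESeq2-normalized counts r reversed to -0.039 for the endothelial list. No paired analysis was possible because each library came from a different cow and the labels give no pairing of cows between breeds. For *miR-7*, the 71 to 135 reads in the Montbéliarde libraries limit precision.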
